A study of Mus musculus with 6 samples.

Results

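Gene levels are described here for the unperturbed newborn striatum, taken from the 3 control libraries of a bulk RNA-seq series with 6 libraries. A gene was included when its mean scaled count over the 3 control libraries was at least 10, which kept 16107 of 47062 gene identifiers (34.2%). Scaled counts are the deposited read counts after scaling to a common depth, and FPKM (fragments per kilobase of transcript, adjusted for sequencing depth) is the deposited value per transcript length. Of the genes included, 13715 (85.1%) are protein-coding and 2392 have another or no annotated class. No test was made, because all 3 libraries belong to a single group, and each mean is given with the SD between libraries (n = 3).

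The control mice carried floxed Sp9 alleles on both chromosomes (Sp9Flox/Flox) and no Cre, on a mixed background of C57BL/6J, 129S6 and CD1, and were taken at postnatal day 0. The 3 mutant libraries of the series (Drd2-Cre;Sp9Flox/Flox, littermates) were not used. Tissue was the dissected striatum together with the subventricular zone (SVZ), so progenitors and newborn neurons were collected with the mature region. Nothing in the labels ties a library to a single animal or to a pool, so the spread between libraries may in part be technical. In bulk tissue, fewer cells of a type and less RNA per cell cannot be told apart.

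The striatum is the main input nucleus of the basal ganglia. Most of its neurons are GABAergic spiny projection neurons, which fall into direct pathway cells, marked by the dopamine receptor Drd1 with the neuropeptides substance P and dynorphin, and indirect pathway cells, marked by the dopamine receptor Drd2, the adenosine receptor Adora2a and enkephalin. Both classes are born from the lateral ganglionic eminence, whereas most striatal interneurons come from the medial eminence. At birth, the SVZ still produces neurons and glia.

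The scaled counts summed to between 19105379 and 19274505 per library, corresponding to an estimated 16877259 to 18579147 fragments, and the genes included held 99.9% of them in each library. The 3 libraries resembled each other closely across genes, with Pearson's r of log2(FPKM + 0.5) between 0.988 and 0.990 for the 3 pairs. Replicates 1 and 2 carried Xist, the X-inactivation RNA, and replicate 3 carried Y-linked genes. Just below the inclusion limit lay Slc38a11, Plscr1 and an entry of Ccl27 with mean scaled counts of 9.95, 9.96 and 9.98, and just above it lay Fgfr4 and Rhod with 10.01 each and Hapln4 with 10.02.

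Defining genes of the labelled tissue were present. All 23 genes listed for spiny projection neurons of both classes were included, with a median FPKM of 97.0, against a median of 9.44 over all genes included. By contrast, none of 39 Hox genes, which pattern the hindbrain, spinal cord and body, was included, and of 12 genes of organs outside the brain only Acta1, skeletal muscle actin, was (mean FPKM 1.48 ± 0.31). The plot of list levels sets these groups side by side.

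Transcription factors were among the highest projection neuron genes. Meis2, a homeobox factor of the lateral eminence lineage, was listed at FPKM 477, 407 and 443 in replicates 1, 2 and 3. Foxp1, a forkhead factor of striatal neurons, stood at 322, 328 and 344, and its relative Foxp2 at 50.7, 52.2 and 50.8. Foxp1 was thus 6.47 ± 0.26 times as abundant as Foxp2 on the FPKM scale, with a ratio between 6.29 and 6.76 in every library. Bcl11b (Ctip2), a zinc finger factor needed for projection neuron differentiation, reached 178 ± 10.7, and its relative Bcl11a 179 ± 17.5.

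Signalling genes of these neurons were already abundant at birth. Ppp1r1b, which encodes the dopamine-regulated phosphatase inhibitor DARPP-32, was at FPKM 189, 197 and 216. Gnal, the G protein alpha subunit through which Drd1 and Adora2a raise cyclic AMP, was at 187, 195 and 194, and Gng7, its gamma subunit, at 237, 218 and 234. The phosphodiesterase Pde10a was at 134 ± 15.7. Lower in the list stood Adcy5, the striatal adenylyl cyclase, at 24.6 ± 1.82, Rgs9, a regulator of G protein signalling, at 22.9 ± 2.69, and Rasd2 (Rhes), a striatal small GTPase, at 3.63 ± 0.60. None of the 23 genes had an SD of log2(FPKM + 0.5) above 0.5 between libraries. That limit was passed by 462 of all 16107 genes included (2.87%).

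**Figure D1:**
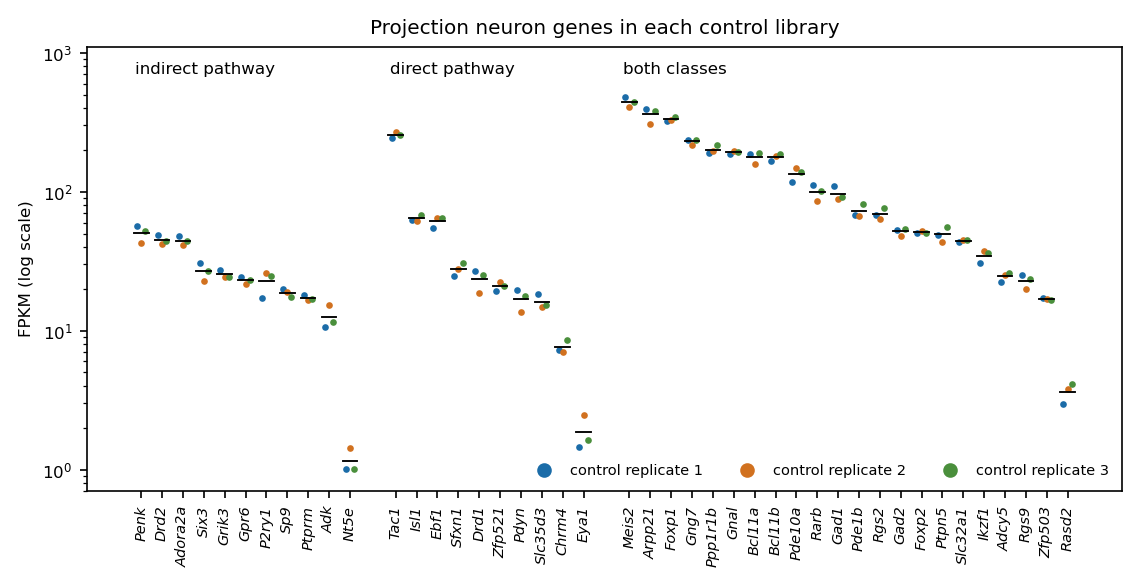
FPKM (log axis) of named genes of the indirect pathway, the direct pathway and both classes of projection neuron. Each point is 1 control library and each black line the mean of the 3 libraries. The genes span more than a factor of 100 in level, while the points of a gene mostly lie close together.

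Genes of the indirect and the direct pathway had similar median levels, at FPKM 23.0 over 11 genes and 22.3 over 10 genes. Averaged over each list on the scale of log2(FPKM + 0.5), the indirect pathway genes lay 0.21, 0.24 and 0.32 below the direct pathway genes in replicates 1, 2 and 3, a mean difference of -0.26 ± 0.06. This difference describes the genes chosen for each list and does not measure the share of either cell class. The highest gene of either list was Tac1, the substance P precursor, which pulls the direct pathway mean upward. The next direct pathway gene, Isl1, was at a mean FPKM of 64.3, against 256 for Tac1. The sign of the difference may therefore rest on Tac1, and the difference without Tac1 was not computed.

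Among the dopamine receptors, Drd2 (chr9:49340627-49408177 in GRCm38) was listed at FPKM 48.5, 42.0 and 44.5, and Drd1 (chr13:54051183-54055705) at 27.0, 18.8 and 25.3. Drd2 exceeded Drd1 in every library and the receptors' ranges did not overlap, with a ratio of 1.93 ± 0.27. Replicate 2 was lowest for both. Drd4 and Drd5 were near the bottom of the range at 0.71 ± 0.36 and 0.36 ± 0.03, and Drd3 fell below the inclusion limit.

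Among the other indirect pathway genes, Adora2a reached FPKM 44.3 ± 3.26, close to Drd2. The orphan receptor Gpr6, enriched in indirect pathway neurons, was at 23.0 ± 1.44, and Six3, a homeobox factor of this lineage, at 26.8 ± 4.0. Sp9, the zinc finger factor floxed in these mice and required for indirect pathway neurons, was at 20.1, 19 and 17.3 in the 3 control libraries, 18.8 ± 1.38 on average. Nt5e, the ectonucleotidase that makes adenosine outside cells, was lowest in the list at 1.15 ± 0.25. Of the remaining genes in the list, Grik3, P2ry1, Ptprm and Adk lay between 12.5 and 25.4.

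Among the other direct pathway genes, the homeobox factor Isl1 was at FPKM 63.1, 61.6 and 68.4 and the factor Ebf1 at 54.6, 64.7 and 65.0. Both are regulators of direct pathway differentiation, and Isl1 also marks cholinergic interneurons. Sfxn1 and Slc35d3 stood at 27.7 ± 3.02 and 16.1 ± 1.80, and the zinc finger factor Zfp521 at 20.8 ± 1.48. Chrm4, the muscarinic receptor of direct pathway neurons, reached 7.66 ± 0.84, and Eya1 was lowest at 1.86 ± 0.55.

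Of the neuropeptide precursors, Tac1 was highest at FPKM 243, 268 and 256. Npy, a marker of medial eminence interneurons, followed at 155, 226 and 187, and Sst (somatostatin), largely from the same interneurons, at 126, 158 and 151. Penk, the enkephalin precursor of indirect pathway neurons, was at 57.0, 43.0 and 52.5, and Pdyn, the dynorphin precursor of direct pathway neurons, at 19.6, 13.7 and 17.6. Among these 5 genes, the order Tac1, Npy, Sst, Penk and Pdyn held in every library. Penk exceeded Pdyn by a factor of 3.01 ± 0.12. Replicate 2 was lowest for both Penk and Pdyn and highest for Tac1, Npy and Sst. Of 22 precursors listed, 15 were included. Cartpt, an adult striatal peptide gene, was listed at 0 in all 3 libraries, and Vip at 0 in replicates 1 and 3.

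Apart from these peptides, interneuron genes were mostly lower than those of projection neurons, and the 12 included medial eminence genes had a median FPKM of 7.99. Lhx6, a factor of medial eminence interneurons, was at FPKM 15.3, 18.6 and 16.1, and Nkx2-1, which specifies them, at 7.23, 9.82 and 9.41. Pvalb, a calcium-binding protein of mature fast-spiking interneurons, was listed at 0 in all 3 libraries. The cholinergic genes were lower still, with Chat, the acetylcholine-synthesising enzyme, at 0.60 ± 0.29 and the vesicular transporter Slc18a3 at 2.88 ± 0.62. In the caudal eminence list, Reln, an extracellular protein made by many neurons, stood apart at 122 ± 14.5. Nr2f1 was at 12.5 ± 0.39, while Prox1, Calb2, Htr3a, Nr2f2 and Sp8 lay between 0.85 and 1.54.

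NMDA receptor subunits that exchange during neuronal maturation stood at unequal levels. Grin2b, the NMDA receptor subunit of early development, was at FPKM 22.0, 22.7 and 24.1, and Grin2a, the subunit that joins during maturation, at 0.61, 0.68 and 0.60, a ratio of 36.6 ± 3.44. Gabra5, a GABA-A receptor alpha subunit, was at 49.3, 60.9 and 58.4. The highest ionotropic glutamate receptor gene was Gria2, the AMPA receptor subunit that limits calcium entry, at 181, 161 and 177. Of 18 glutamate receptor genes 17 were included, without Grin3b, and of 14 GABA-A receptor genes 12, without Gabra6 and Gabre.

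Chloride transporters set whether GABA excites or inhibits a neuron. Slc12a5 (KCC2), the neuronal chloride exporter that rises with maturation, was at FPKM 41.7, 35.3 and 38, and Slc12a2 (NKCC1), the importer, at 13.4, 13 and 14. Slc12a5 exceeded Slc12a2 by a factor of 2.84 ± 0.23, with ranges that did not overlap. Slc12a2 is also made by cells other than neurons. All 5 muscarinic receptor genes were included, led by Chrm1 at 21.2 ± 0.53.

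Genes of progenitors and newborn neurons were present together with those of neurons. The distal-less genes Dlx1, Dlx2, Dlx5 and Dlx6, factors of the GABAergic lineage, were at mean FPKM 56.2, 15, 24.5 and 62.6. Dlx1 was at 81.3 in replicate 1 but at 41.9 and 45.4 in replicates 2 and 3, and Dlx2 followed the same order with 21.2, 11.5 and 12.2, so that the Dlx1 to Dlx2 ratio stayed at 3.74 ± 0.10. Of 14 included lateral eminence progenitor genes, 10 were highest in replicate 1, against 36.7% of all genes included. Gsx2, a factor of early lateral eminence progenitors, was at only 0.72 ± 0.32, and its relative Gsx1 was below the inclusion limit.

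All 20 cell cycle genes were included at a median FPKM of 3.43, among them the proliferation marker Mki67 at 2.58, 1.96 and 1.65 and the topoisomerase Top2a at 8.46, 6.8 and 5.1. Markers of young neurons were far higher, with Dcx, the microtubule protein of migrating neurons, at 219, 242 and 226 and the factors Sox4 and Sox11 at 177 ± 13.3 and 110 ± 3.03. The 13 genes in that list had a median of 110.

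Glial genes were unequal. Fabp7, a fatty acid binding protein of radial glia, was at FPKM 437, 547 and 444, and the glutamate transporter Slc1a3 at 44.6, 51.6 and 43.1. Genes of mature astrocytes were low, with Aqp4, the water channel, at 2.68 ± 0.60 and Gfap at 0.48 ± 0.07. In the oligodendrocyte lineage Olig1 and Olig2, factors of the whole lineage, were at 36.5 ± 5.53 and 15.2 ± 2.58, and Pdgfra, the receptor of its precursors, at 9.67 ± 1.73. Mbp, a myelin protein, was at 8.87 ± 1.41, while Mag and Enpp6 were below the inclusion limit. Mbp shares its locus with transcripts known outside oligodendrocytes.

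Genes of microglia and of vessels were included at low levels. All 14 microglial genes were included at a median FPKM of 2.62, and their summed FPKM was 49.8, 49.6 and 51.6 in replicates 1, 2 and 3. Aif1, at 4.47, 4.93 and 10.8, raised the sum in replicate 3. Of the 14 genes, 4, 3 and 7 were lowest in replicates 1, 2 and 3, against 32.7%, 39.0% and 28.3% of all genes included. All 14 endothelial and mural genes were included at a median of 3.13, with the tight junction gene Cldn5 at 22.4 ± 2.32. Of 9 red blood cell genes 5 were included, at a median of 90.4, and the adult globins Hba-a1, Hba-a2, Hbb-bt and Hbb-bs lay between 85.0 and 183. Hba-a1 and Hba-a2 are near-identical copies, so how reads were divided between them is uncertain. The embryonic globins Hbb-y and Hbb-bh1 were listed at 0. Choroid plexus genes were nearly absent: 3 of 8 were included, and Ttr, the most abundant choroid plexus transcript, was at 0.39 ± 0.41 and below the inclusion limit.

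Levels were spread widely. The middle 50% of genes included had a mean FPKM between 2.27 and 25.8, 835 genes (5.18%) reached 100 and 53 reached 1000. The 1150 genes with the most fragments held 50% of scaled counts. The 13 protein genes of the mitochondrial genome held 3.10 ± 0.09% of scaled counts, from mt-Nd5 at a mean FPKM of 1873 to mt-Co1 at 9882 and mt-Atp8 at 43308. A further 7 unprocessed pseudogenes on chromosome 1 had values in that range, 2064 to 6181, and held 0.84% of scaled counts. Chromosome 1 of the mouse is known to carry a nuclear insertion of mitochondrial sequence. Because near-identical copies may share reads, the levels of such pseudogenes and of the mitochondrial genes are uncertain.

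Among nuclear protein-coding genes, the highest was the neuronal tubulin Tuba1a at FPKM 4945, 5373 and 5146, followed by the translation elongation factor Eef1a1 at 2653, 3007 and 2942. Ribosomal protein and cytoskeletal genes filled most of the next places. Rps27, Rplp1, Tubb2b, Tpt1, Actg1, Rps15, Stmn1 and Rps12 lay between 1546 and 1990. Stmn1, a tubulin-binding protein of growing neurons, varied least of these, with 1536, 1591 and 1545. Nnat, an imprinted gene of developing neurons, was at 1446, 1321 and 1328. All 25 genes of the neuronal cytoskeleton were included at a median of 488, among them the growth cone protein Gap43 at 488 ± 21.4.

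Among noncoding RNAs other than pseudogenes, the mitochondrial ribosomal RNAs mt-Rnr2 and mt-Rnr1 had mean FPKM of 1326 and 1309. They were followed by the imprinted nuclear transcripts Meg3 at FPKM 1277, 954 and 1248 and Rian at 1051, 973 and 1106. The highest mean FPKM of the genes included was that of Gm23134, an annotated miRNA gene of 87 bases at chr2:157562361-157562447, whose mean FPKM of 94871 rested on a mean scaled count of only 12.4. Gm23134 lies opposite to an exon of Nnat. It alone held 13.5% of the summed FPKM of the genes included. The 100 highest genes held 44.6 ± 1.68% of summed FPKM, but 34.8 ± 1.19% among protein-coding genes and, ranked by scaled count, 15.9 ± 0.36% of scaled counts, so the concentration depends on the measure.

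The spread between libraries was small for most genes and followed the count. The median SD of log2(FPKM + 0.5) was 0.116 over all genes, 0.155 for genes between FPKM 1 and 10 and 0.084 for those between 10 and 100. For genes with fewer than 30 estimated fragments, the median coefficient of variation (CV) of scaled counts was 25.2%. Counting error over many libraries, taken as the inverse square root of the fragment count, has a median CV of 24.5% for them. A median of CVs from 3 libraries tends to fall below such a value, so the excess over counting error is understated. For genes with at least 10000 fragments the median CV was 4.57%, 5.57 times the 0.82% of counting error. For the abundant genes the differences between libraries therefore exceeded counting error. The steadiest genes of at least FPKM 10 were Tulp4 at 105.0, 105.1 and 104.9, Smap2, which takes part in vesicle transport, at 52.9, 53.0 and 53.0, and the RNA-binding protein Ythdf2 at 27.1, 27.2 and 27.1.

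**Figure D2:**
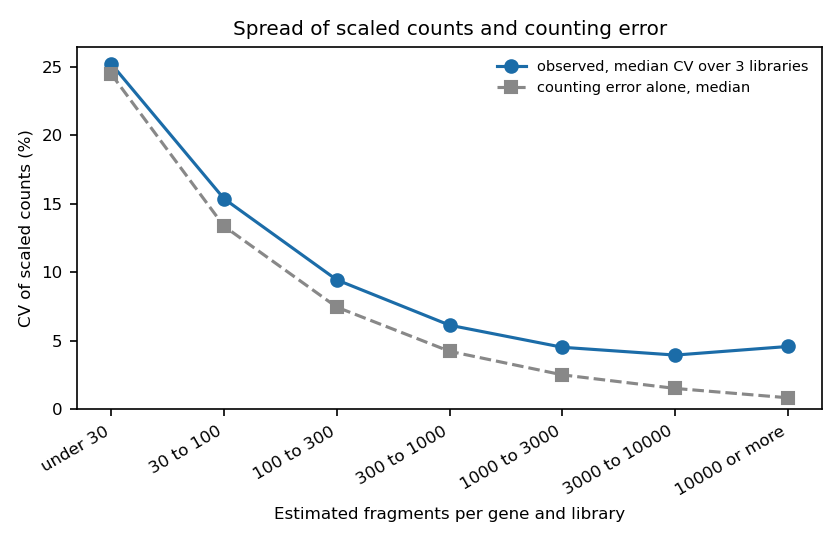
Median CV of scaled counts over the 3 control libraries (circles, in %) and the CV of counting error over many libraries (squares), by estimated fragments per gene and library. The circles tend to lie low because each CV comes from 3 libraries. The curves nearly meet below 30 fragments, at 25.2% and 24.5%, and separate to 4.57% and 0.82% at 10000 fragments or more.

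Of the 462 genes with an SD above 0.5, 312 had a mean scaled count under 100 and 233 were predicted genes, pseudogenes or genes without a name. For comparison, a mean scaled count of at least 50 was reached by 222 of the 462 and by 12838 of all 16107 genes included. Protein-coding genes were 298 of the 462 and 13715 of the 16107. The widest spread was that of Xist, at FPKM 235, 195 and 0.06. Eif2s3y, a Y-linked translation initiation factor, was at 0.19, 0 and 64.6, and Ddx3y, Kdm5d and Uty, also Y-linked, were likewise high only in replicate 3. The libraries thus differ in sex-linked RNA, and differences between replicate 3 and the other two cannot be told apart from differences by sex. Amy1, an amylase, was at 36.4, 14.99 and 5.56. Tpm3-rs7, which is named as related in sequence to the tropomyosin gene Tpm3, was at 3.45, 25.8 and 50.2, and Pagr1a, whose exons overlap its copy Pagr1b, at 1.40, 9.18 and 10.2. Reads of these last genes may be shared with their copies.

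**Figure D3:**
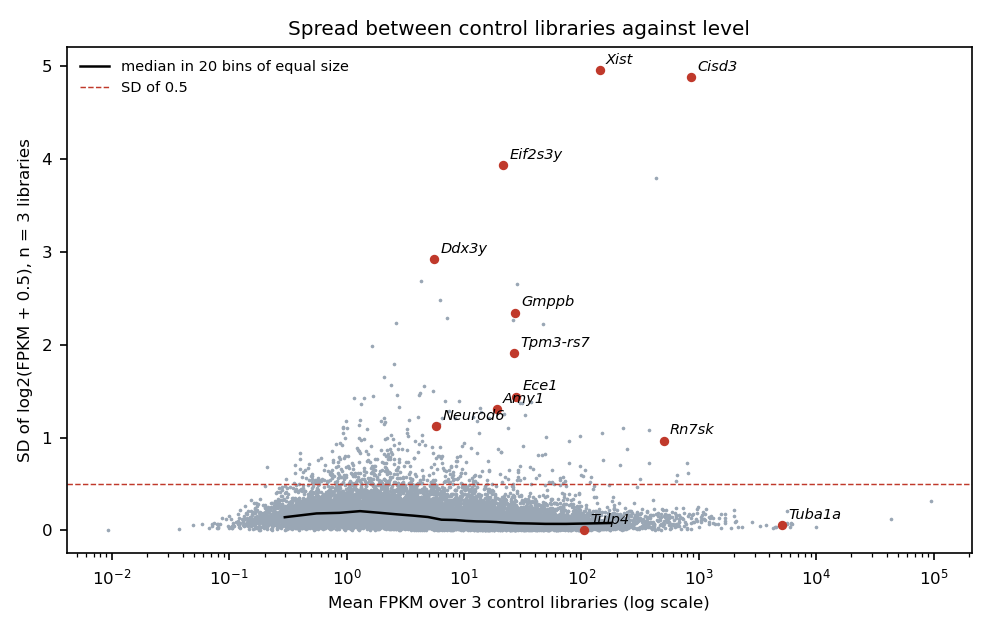
SD of log2(FPKM + 0.5) between the 3 control libraries against mean FPKM (log axis), 1 point per gene included. The black line is the median in 20 bins of equal size, the dashed line the SD of 0.5, and red points are named genes. Most genes lie far below the dashed line, and Xist and Cisd3 lie highest.

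In 47 of the 462 genes the FPKM moved while the scaled count hardly did, with an SD of log2 scaled count under 0.2. Cisd3, an iron-sulfur protein gene, was listed at FPKM 1249, 3.22 and 1347 on scaled counts of 23.2, 24.8 and 21.7. Ece1, the endothelin-converting enzyme gene, was at FPKM 62.1, 10.5 and 10.7 on scaled counts of 861, 842 and 882. Mtg1, Zswim9 and Entpd1 showed the same pattern. For these genes the difference lies in the FPKM estimate and not in the number of fragments. Exons of 21 of the 47 genes (44.7%) overlap those of another annotated gene, against 37.8% of the 16025 genes included that have an entry in the annotation, and the part of such overlaps in the pattern was not tested. In the other direction, 590 genes had an SD above 0.5 on scaled counts only.

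Some genes set a single library apart, in that it was at least 2-fold above or below both others. Replicate 1 was above both others in 25 genes (0.155%) and below in 25 (0.155%). Replicate 2 was above in 30 (0.186%) and below in 72 (0.447%). Replicate 3 was above in 22 (0.137%) and below in 40 (0.248%). The genes named for each library in the next paragraphs were chosen after their values were seen, except where they belong to a list.

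Replicate 3 was low in genes of cortical glutamatergic neurons. Neurod6, a factor of cortical projection neurons, was at FPKM 6.18, 9.50 and 1.72, and Neurod2, a related factor, at 4.92, 3.86 and 1.65. The summed FPKM of the 10 listed genes was 24.2, 25.1 and 8.88. Of the 8 genes included, 6 had an SD above 0.5, against 2.87% of all genes included, and 6 were lowest in replicate 3, against 28.3% of all genes included. The other 2 were lowest in replicate 1 and in replicate 2, respectively. Fezf2 and Emx1, which define cortical projection neurons and their progenitors, were below the inclusion limit. Replicate 3 is also the library with Y-linked RNA, and the part of any other difference between the libraries was not tested. Over the same libraries the summed FPKM of the projection neuron genes of both classes was 3095, 2907 and 3155.

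**Figure D4:**
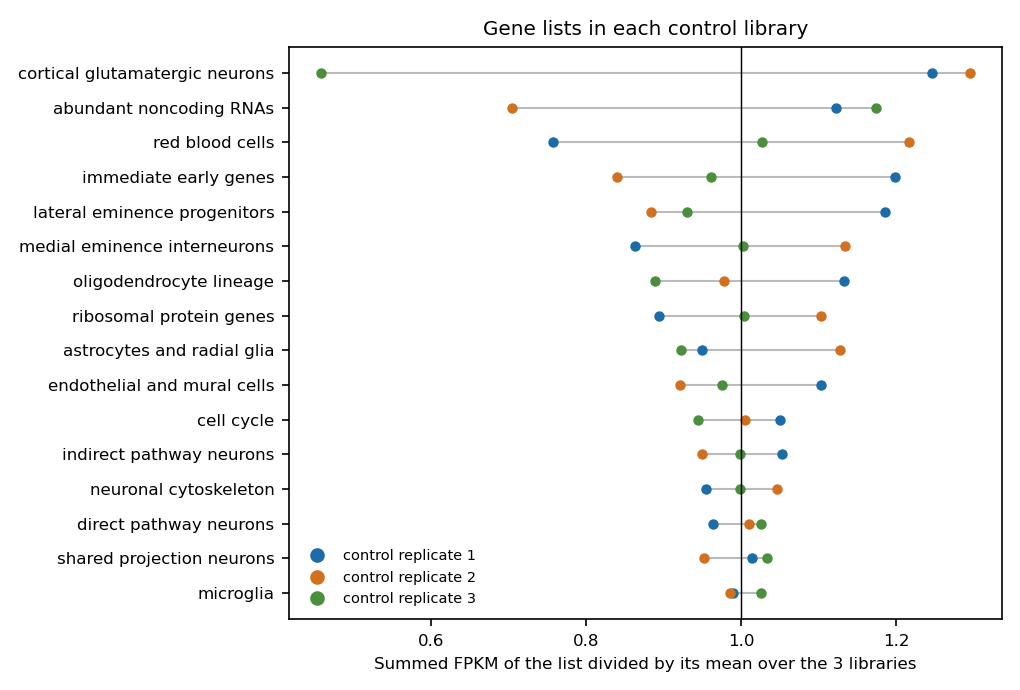
Summed FPKM of all listed genes in each control library, divided by the mean of the 3 libraries for that list. Each colour is 1 library. Cortical glutamatergic genes are low in replicate 3, abundant noncoding RNAs low in replicate 2, immediate early genes high in replicate 1, and microglial and projection neuron genes lie near 1 in all 3 libraries.

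Replicate 2 was low in several abundant noncoding RNAs. Rn7sk, the RNA that restrains the elongation factor P-TEFb, was at FPKM 555, 207 and 747, and Rmrp, the RNA of an endoribonuclease, at 184, 76.8 and 197. Meg3 was at 1277, 954 and 1248. Snhg11, listed with these RNAs but classed as protein-coding in the annotation used, was at 42.1, 9.73 and 47.2. Of the 11 genes in this list, 9 were lowest in replicate 2, against 39.0% of all genes included. The same library was high in genes of astrocytes and radial glia, with 12 of 14 genes highest there, against 33.6% of all genes included. Imprinted genes, which include Meg3, were lowest there in 15 of 19 cases, against the same 39.0%.

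Ribosomal protein genes differed between libraries in nearly the same order. All 76 were included, at a median FPKM of 536, and their summed FPKM was 41593, 51332 and 46716. Replicate 2 was highest in 69 of them (33.6% of all genes included) and replicate 1 lowest in 74 (32.7%), with a median difference between replicate 2 and replicate 1 of 0.28 on the log2 scale. Rps18 was the exception in spread, at 425, 511 and 196, lowest in replicate 3 on scaled counts of 3660, 4440 and 1685. Ribosomal protein genes have many processed copies in the genome, and their assignment of reads is uncertain. The same libraries also differed with exon length. Among protein-coding genes of at least FPKM 1, the median log2 difference between replicates 2 and 1 was 0.20 for genes under 1000 bases of exon and -0.08 for those of at least 8000 bases. Ribosomal protein genes are short, and the part of length in their difference was not tested.

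Immediate early genes, which neurons switch on within minutes of activity, were highest in replicate 1. Fos was at FPKM 6.36, 3.48 and 3.06, Junb at 9.13, 6.33 and 6.63, Nr4a1 at 16.6, 9.98 and 14.1, and Npas4, a factor that responds to calcium entry, at 22.4, 14.1 and 18.9. Of the 17 genes included, 16 were highest in replicate 1, against 36.7% of all genes included, and only Nr4a2 was not, at 0.25, 1.27 and 0.18. The highest of the list was Egr1 at 30.2, 21.8 and 24.3. Atf3 fell below the inclusion limit.

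Because nearly all of these genes were highest in the same library, some of their promoters are shown. RefSeq (GRCm38.p6) gave starts for 13 of the 17 genes, and the 250 bases before each start were searched on both strands for TGACG, the core of the site of the activity-regulated factor CREB, for the full palindrome TGACGTCA that contains it, and for the serum response (CArG) box, which is CC, then 6 letters that are A or T, then GG. TGACG was found for 11 of the 13 genes (84.6%), against 30.1% of the protein-coding genes described with a promoter and 19.8% of all genes in that table. Jun and Fosl2, both highest in replicate 1, had no match. Every window printed below holds a match. The full palindrome was found for 2 of the 13 genes (15.4%), Btg2 and Dusp1, against 3.07% of the protein-coding genes described with a promoter. The CArG box was found for 1 (7.69%), Egr2, against 1.497% of those protein-coding genes. These shares rest on 2 genes and 1 gene. A match describes the letters only. The 150 bases before the start are printed 5′ to 3′ for Fos, Junb, Egr4 and Nr4a1, which were highest in replicate 1, and for Nr4a2, which was not. Capitals mark TGACG, or CGTCA where the match is on the other strand.
Fos: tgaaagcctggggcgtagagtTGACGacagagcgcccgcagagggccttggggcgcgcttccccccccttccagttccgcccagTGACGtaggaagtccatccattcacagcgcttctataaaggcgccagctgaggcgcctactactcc
Junb: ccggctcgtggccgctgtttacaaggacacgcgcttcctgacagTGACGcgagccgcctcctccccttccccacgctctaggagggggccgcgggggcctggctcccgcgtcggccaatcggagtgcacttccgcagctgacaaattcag
Egr4: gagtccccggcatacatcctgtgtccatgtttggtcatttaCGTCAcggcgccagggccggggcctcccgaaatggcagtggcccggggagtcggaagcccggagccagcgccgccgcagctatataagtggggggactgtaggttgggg
Nr4a1: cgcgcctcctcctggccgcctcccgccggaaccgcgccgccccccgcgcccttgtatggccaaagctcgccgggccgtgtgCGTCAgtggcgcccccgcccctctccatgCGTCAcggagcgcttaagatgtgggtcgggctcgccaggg
Nr4a2: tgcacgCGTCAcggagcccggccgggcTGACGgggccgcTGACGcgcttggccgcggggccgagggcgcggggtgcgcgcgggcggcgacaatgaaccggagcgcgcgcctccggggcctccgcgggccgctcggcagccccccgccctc

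These windows are chr12:85473740-85473889 on the plus strand for Fos, chr8:84978749-84978898 on the minus strand for Junb, chr6:85513590-85513739 on the minus strand for Egr4, chr15:101266696-101266845 on the plus strand for Nr4a1 and chr2:57124004-57124153 on the minus strand for Nr4a2. The Nr4a2 window holds 3 matches, more than the 2 of Fos, so the presence of the motif did not separate the exception from the genes that were highest in replicate 1.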

How the data were processed

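Bulk RNA-seq of newborn mouse striatum was described for the 3 control libraries. Per the submitters' processing notes, TopHat and Cufflinks 2.1.1 were used with GRCm38.p4. Not given in the sources used here are the gene annotation, strand settings and how multi-mapping reads were handled. The FPKM values were used as deposited by the authors. The deposited count columns are a signal on a scale common to the libraries: about 98.0% of values were whole multiples (within 0.1) of a step of 1.03 to 1.14 per library, from which fragments were estimated. Symbols and classes came from GENCODE M21 for 46569 of 47062 identifiers. Genes had a mean scaled count of at least 10, and SDs were taken on log2(FPKM + 0.5) with pandas 2.3.3. Only the calculations of the SD and of a library set apart were tested on simulated data. Those simulated counts held large planted shifts and no spread beyond counting error.

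Genes were named by rule: the 20 highest protein-coding and 10 highest other genes, the 15 widest (at least FPKM 1), the 10 steadiest (at least FPKM 10), up to 8 highest genes of each list with those below the limit, and all genes of the projection neuron, dopamine receptor and chloride transporter lists. Not all are printed, and a few are not reported here. Predicted genes were counted and not named, except Gm23134. The genes and lists were chosen with earlier results of these data known. With 3 libraries of a single group, precision is limited to the SD between them. Alternatives covered the pseudocount, the filter, the scaling, the measure, the gene class and leaving out each library.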

Additional observations from a re-analysis of the deposited data

How the results depend on the processing

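Pseudocounts of 0.1 and 1 gave a median SD of log2 FPKM of 0.130 and 0.1035, with 982 and 292 genes above 0.5, and a pseudocount of 0.1 gave 427 genes with a library 2-fold from both others, against 209. Without the filter on scaled counts, 26169 genes were kept, the 100 highest held 65.4% of summed FPKM, the median SD was 0.127, 1855 genes had an SD above 0.5 and 1108 had a library apart. A minimum of 50 gave 36.4%, 0.102, 222 and 108, respectively, and protein-coding genes alone gave 34.8%, 0.107, 298 and 131. Rescaling FPKM to a sum of 1000000 in each library gave a median SD of 0.129, changed the list medians by factors of 1.41 to 1.46 and shifted the median of all genes by 0.50, 0.45 and 0.52 on the log2 scale in replicates 1, 2 and 3. Under it 55 of 76 ribosomal protein genes were highest in replicate 2, against 21.5% of all genes. The orders of immediate early, progenitor, glial, noncoding and cortical genes across libraries had the same counts under this, under median-ratio scaling and with scaled counts, and 14 to 16 of 19 imprinted genes were lowest in replicate 2. Under rescaling to a fixed sum, 51.2% of all genes were lowest in replicate 2, against 39.0% as reported, so the counts of noncoding and imprinted genes lowest there stand less far from that share. Scaled counts in place of FPKM gave 15.9%, 947 genes with an SD above 0.5, 418 genes with a library apart and a difference between indirect and direct pathway genes of -0.16, which is not per length. Without each control library in turn, the median SD lay between 0.0818 and 0.106, and the other summary results stayed within their limits, while 2 to 4 of 35 list medians moved by more than their SD between libraries, as did 9 without the filter and 14 of 34 with the minimum of 50. The causes of these shifts were not tested. Median-ratio scaling changed no result beyond its limit. The sign of the pathway difference was negative under each alternative. None of these alternatives left out a gene of either pathway list, so the sign is not shown to hold without Tac1.

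A count of genes with a library apart cannot be formed from 2 libraries, and list medians were not recomputed on scaled counts, which are not per length. No paired analysis was possible because only control libraries were described and no test was made. Counting error is large for genes under 30 fragments, so small differences in them are not detectable at this depth. With 3 libraries, sex-linked RNA, brain region markers and any other difference of replicate 3 cannot be told apart.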

Other observations

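Of 65 replication-dependent histone genes, whose mRNAs end without a poly(A) tail, 9 were included, at a median FPKM of 3.63, and 6 were listed at 0 in all 3 control libraries. Genes often used as references in PCR covered a wide range of levels: all 17 were included, from Gusb at FPKM 4.72 ± 0.42 to Eef1a1 at 2867 ± 188, with Gapdh at 125, 125 and 119 and Actb at 1041, 1074 and 1219. B2m, a subunit of class I histocompatibility molecules, varied most among those named here, at 11.9, 16.3 and 8.85.

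Markers of neighbouring regions other than cortex were few. Of 10 genes of the septum, thalamus and hypothalamus 5 were included, led by Zic1, a factor of septal and midline neurons, at FPKM 5.45, 8.32 and 6.56. Of 8 meningeal genes 4 were included, led by the collagen gene Col1a2 at 1.86 ± 0.18. Of 6 ependymal genes 2 were included, Rarres2 at 3.55 ± 0.92 and Foxj1, the factor of motile cilia, at 0.64 ± 0.15.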
